A study of Mus musculus with 18 samples.

Results

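The transcription factors followed here belong to the naive pluripotency network and were Klf2, Klf5, Esrrb, Tfcp2l1, Nanog, Zfp42 (Rex1), Nr0b1 (Dax1), Tbx3 and Tfap2c. They were selected by gene name as a set of known factors, with earlier results of these data known, and are 9 of the 55469 genes analysed in 18 RNA-Seq libraries. Expression is given as FPKM, fragments per kilobase of transcript scaled to the mapped fragments of the library, so levels of different genes are compared per length.

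The libraries came from mouse cells with a DOX-inducible transgene for Oct4, Sox2, Klf4 and c-Myc (OSKM) and fell into 9 groups of 2. ESCs of one Tet-On-OSKM/Oct4-GFP line, of the cross (C57BL/6 x 129S4/SvJae)F1 with (CBA/CaJ X C57BL/6J)F2, were derived and kept in 2iL, which is N2B27 medium with a MEK inhibitor, a GSK3 inhibitor and LIF. OSKM-ESCs were moved from 2iL to N2B27 with DOX and no inhibitors or LIF, 2iL-ESCs stayed in 2iL, and each was collected at days 18, 25 and 38. MEF cells of the (C57BL/6 x 129S4/SvJae)F1 background, cultured in DMEM with serum and collected at passage 4, were reprogrammed in N2B27 with DOX to OSKM-iPSCs (clone 1 at passage 7, clone 3 at passage 6) or in 2iL with DOX to 2iL-iPSCs (clone 3 at passage 2, clone 6 at passage 3). For daily culture of the 2iL-iPSCs, labels (N2B27 with DOX) and methods (2iL, with DOX removed once clones were picked) differ, and grouping followed the clone names. Medium and passage cannot be told apart in the iPSCs. The 2iL-ESCs carried the transgene as well, and its reads cannot be separated from the endogenous Oct4 (listed as Pou5f1), Sox2, Klf4 and Myc in gene-level values. The 9 factors are not on the transgene. All ESC libraries were from 1 line, the line was derived on feeder cells, and no source used here says that replicate cultures were started separately, so p-values measure the spread between these cultures, which may be technical.

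FPKM exceeded 1 for 11303 to 12095 genes in each library, and the mean coverage per unit of FPKM lay between 5.01 and 6.07. The depth in reads is unknown. Myc, which is on the transgene, had an FPKM of 67.9 to 140.7 in the OSKM-ESC cultures, of 7.57 to 13.6 in the 2iL-ESC cultures and of 71.9 and 42.4 in the OSKM-iPSC clones. In the 2iL-iPSC clones it was 16.7 and 16.1, below both OSKM-iPSC clones and above the 2iL-ESCs. Of 8 general pluripotency markers, 8 had an FPKM over 1 in each of the 16 ESC and iPSC libraries and 1 in each MEF library. Summed over 12 fibroblast markers, FPKM was 22.9 to 42.1 in OSKM-ESCs, 4.76 to 7.33 in 2iL-ESCs and 2057 to 2329 in MEF cells. These markers also mark feeder cells. In the iPSCs the sum was 114.6 in OSKM-iPSC clone 1, which stood apart and 4.64 in OSKM-iPSC clone 3, with less in both 2iL-iPSC clones. In such bulk samples, fewer cells that express a gene and less RNA per cell cannot be told apart.

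Naive pluripotency is the state of the preimplantation epiblast and of ESCs in 2iL. It is held by a network in which Oct4 and Sox2 act with a set of partly redundant factors. LIF acts through STAT3, with Klf4, Klf5 and Tfcp2l1 among its known targets. GSK3 inhibition relieves repression by Tcf7l1, of which Esrrb is a known target. MEK inhibition stabilises Klf2 and relieves the repression of Nanog. The factors differ in kind. Klf2 and Klf5 are Krüppel-like zinc finger proteins, Esrrb is an orphan nuclear receptor that binds DNA, Nr0b1 is an unusual member of the same family that acts as a corepressor, Nanog is a homeodomain protein, and Tfcp2l1 belongs to the CP2 family. Zfp42 is a zinc finger protein used as a marker of naive cells, Tbx3 is a T-box factor, and Tfap2c is an AP-2 factor also known from trophoblast and germ cells.

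The 9 genes lie on 8 chromosomes of GRCm38. Klf2 (chr8:72319033-72321656) and Zfp42 (chr8:43295063-43306980, minus strand) share chromosome 8. The others are Klf5 (chr14:99298691-99315036), Esrrb (chr12:86361117-86521628), Tfcp2l1 (chr1:118627945-118685168), Nanog (chr6:122707489-122714633), Nr0b1 (chrX:86191764-86195947), Tbx3 (chr5:119670669-119684724) and Tfap2c (chr2:172549593-172558622), on the plus strand.

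Promoters are shown for Nanog and Esrrb, whose levels moved together over the days of OSKM culture, and for Zfp42, which moved the other way at day 38. They are the 250 bases before a transcription start in RefSeq (build GRCm38.p6), read 5′ to 3′ on the strand of the gene. RefSeq promoters were read for 6 of the 9 factors, leaving out Klf5, Tbx3 and Tfap2c. Capitals mark matches, on either strand, to the POU motif TTGCAT, the SOX motif ACAATG, the composite OCT-SOX motif (the POU motif, any base, then ACAA, so that it overlaps both), the KLF motif CACCC, the nuclear receptor motif AGGTCA, the STAT motif (TTCC, any base, GGAA) and the TCF motif TCAAAG. Nanog is shown at its first start (chr6:122707239-122707488), Esrrb at its first (chr12:86360867-86361116) and at a start inside the gene (chr12:86421394-86421643), and Zfp42 at its one start (chr8:43307010-43307259, minus strand).
Nanog: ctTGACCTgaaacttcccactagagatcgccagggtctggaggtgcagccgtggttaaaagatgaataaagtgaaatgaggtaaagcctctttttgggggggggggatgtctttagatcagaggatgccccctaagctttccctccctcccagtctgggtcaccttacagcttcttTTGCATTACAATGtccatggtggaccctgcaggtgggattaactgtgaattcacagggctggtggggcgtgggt
Esrrb, first start: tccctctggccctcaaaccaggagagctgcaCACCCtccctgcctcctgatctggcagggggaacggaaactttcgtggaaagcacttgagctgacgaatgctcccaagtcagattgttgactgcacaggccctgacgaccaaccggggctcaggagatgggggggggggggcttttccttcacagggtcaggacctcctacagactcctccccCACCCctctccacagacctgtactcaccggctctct
Esrrb, inner start: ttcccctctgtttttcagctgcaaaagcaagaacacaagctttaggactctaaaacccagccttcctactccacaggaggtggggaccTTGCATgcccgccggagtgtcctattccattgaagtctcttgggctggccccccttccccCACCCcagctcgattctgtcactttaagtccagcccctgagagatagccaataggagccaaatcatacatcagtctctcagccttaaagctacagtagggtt
Zfp42: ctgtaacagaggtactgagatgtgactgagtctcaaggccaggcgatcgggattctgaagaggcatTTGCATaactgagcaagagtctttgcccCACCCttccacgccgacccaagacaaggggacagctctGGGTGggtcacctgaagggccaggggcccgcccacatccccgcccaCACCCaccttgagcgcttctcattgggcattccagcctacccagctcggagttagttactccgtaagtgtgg

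The long run of capitals in the Nanog promoter holds the composite OCT-SOX motif, 74 to 64 bases before the start, and ends with the SOX motif that overlaps it, 67 to 62 bases before the start. Of 32851 promoters of the same length, 0.143% held the composite, and among the 8 promoters of the 6 factors it was found at both Nanog starts, which overlap. The POU motif alone was matched in Zfp42 and at the inner Esrrb start, and in 9.45% of all promoters. The KLF motif was matched in 52% of all promoters and in the promoters of Klf2, Esrrb, Zfp42 and Nr0b1 and at the second Nanog start. The nuclear receptor motif (14% of all promoters) was matched in Nanog and Nr0b1, and the TCF motif (13.8%) in Nr0b1. The SOX motif was in 10.7% of all promoters and the STAT motif in 0.913%, the latter in none of the 8 shown or searched here. Tfcp2l1 had no match to any of the 7 motifs in this window. A match is a run of letters and not a measured binding site.

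In ESCs, Nanog and Esrrb were the 2 factors with the highest median FPKM in both media, and Tbx3 the one with the lowest. In 2iL-ESCs, Nanog had an FPKM of 198.9 at its lowest, 250.5 at the median and 283.2 at its highest over 6 cultures. Esrrb followed with 169.1, 220.4 and 267.5. Klf2 had 102.5, 127.4 and 211.0. Klf2 was above Zfp42 in every culture without overlap of their ranges, whereas Nanog and Esrrb overlapped and each was the higher in 3 cultures. The medians of the other factors were 72.4 for Zfp42, 58.6 for Klf5, 54.3 for Tfcp2l1, 42.6 for Nr0b1, 37.3 for Tfap2c and 22.9 for Tbx3. All neighbours in this lower part of the order overlapped.

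In OSKM-ESCs, the order was Esrrb, Nanog, Tfap2c, Zfp42, Klf2, Nr0b1, Klf5, Tfcp2l1 and Tbx3. Esrrb ran from 23.9 over a median of 38.8 to 57.9 and Nanog from 22.4 over 37.2 to 55.0. These 2 overlapped and both lay above Tfap2c, at 13.2, 17.03 and 18.9, in every culture. Zfp42 (7.98, 15.7 and 16.6), Klf2 (8.84, 10.8 and 19.6), Nr0b1 (9.20, 10.5 and 12.4) and Klf5 (4.94, 7.48 and 10.5) formed an overlapping middle. Tfcp2l1 (2.57, 4.96 and 7.59) overlapped Klf5. Tbx3 stood apart below with 0.487, 0.705 and 1.10.

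The factors did not shrink in proportion between media. The mean FPKM of 2iL-ESCs was 39.1 times that of OSKM-ESCs for Tbx3, 12.2 times for Klf2, 12 times for Tfcp2l1 and 7.71 times for Klf5. It was 6.37 times for Nanog, 5.65 times for Esrrb, 5.21 times for Zfp42, 4.29 times for Nr0b1 and 2.11 times for Tfap2c. All 9 were lower in OSKM-ESCs (limma with day as a covariate, adjusted p from 1.72e-09 for Nr0b1 to 8.07e-05 for Tfap2c), where 24.4% of 14016 genes passed that test in that direction. As a share of the summed FPKM of the 9 factors, Tfap2c had a median of 11.3% (9.66% to 14.5%) in OSKM-ESCs and 4.34% (2.62% to 4.53%) in 2iL-ESCs. Klf2 made up 8.01% (6.14% to 11.8%) and 15.4% (13.03% to 18.7%), and Tbx3 0.467% and 2.76%. The shares of Tfap2c, Klf2 and Tbx3 did not overlap between the media. Nanog and Esrrb had like shares in both media, with medians of 24.6% and 25.8% in OSKM-ESCs and 25.4% and 24.3% in 2iL-ESCs. These shares rest on FPKM, and on the coverage described below the medians for Nanog were 35.7% and 36.3% and those for Esrrb 2.07% and 1.67%. Summed over 6 markers of formative and primed epiblast, FPKM was 207.8 to 455.0 in OSKM-ESCs and 61.5 to 130.2 in 2iL-ESCs, and the part of other cell states in the differences between media was not tested.

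**Figure D1:**
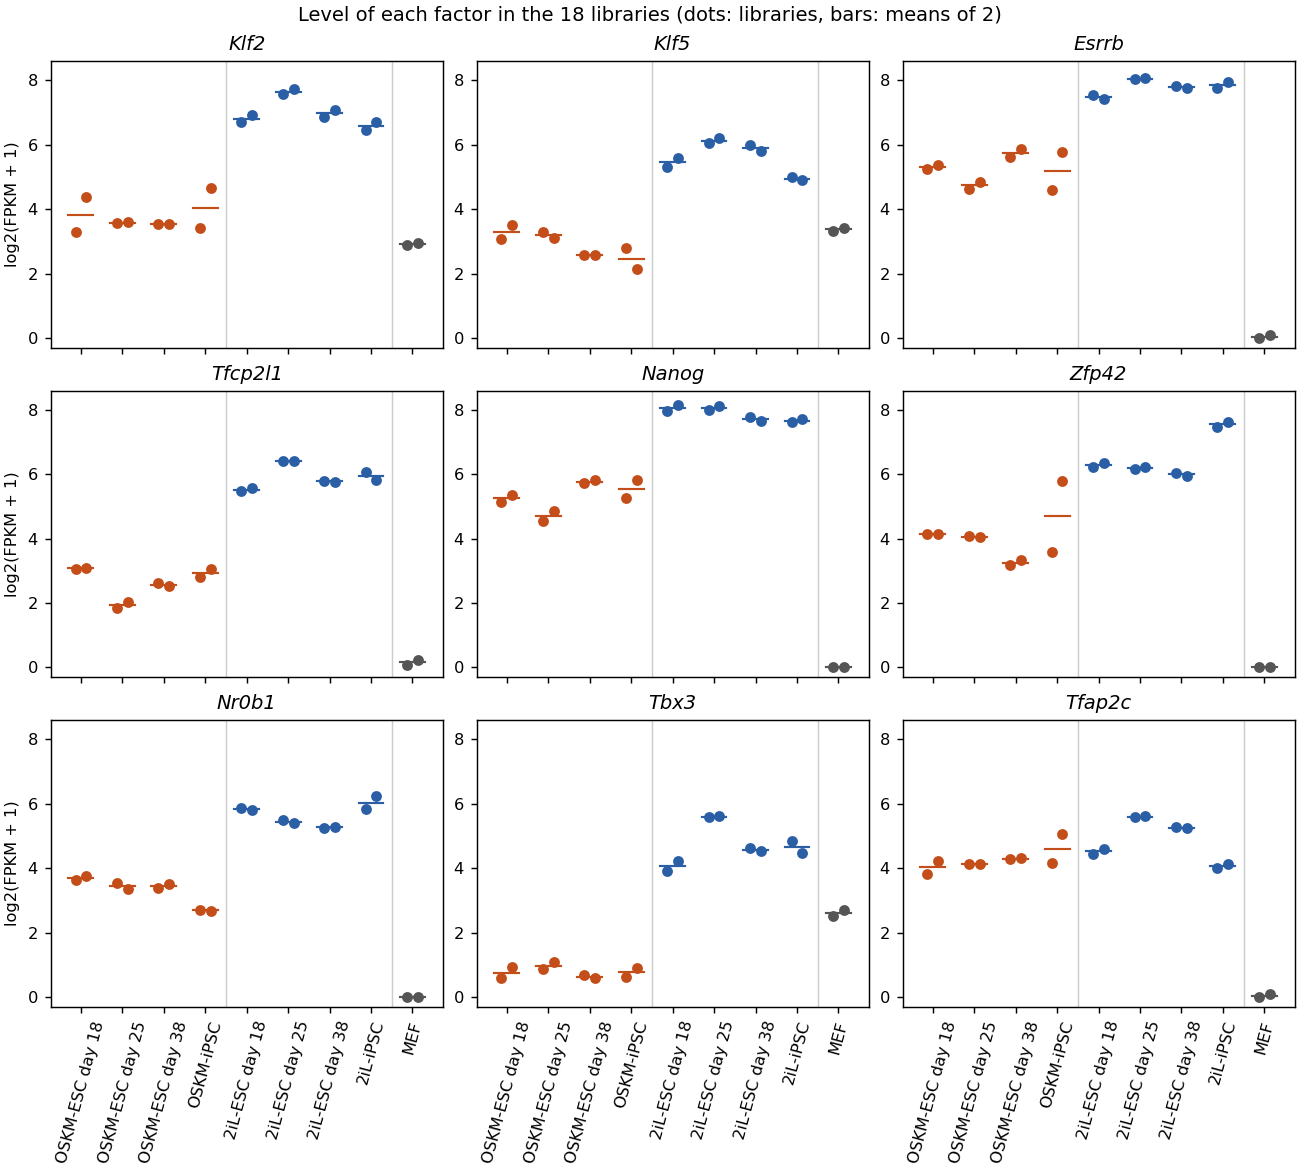
Level of each factor as log2(FPKM + 1) on the vertical axis in the 18 libraries, grouped along the horizontal axis (orange for OSKM, blue for 2iL, grey for MEF cells). Dots are libraries and bars the mean of 2. Tbx3 lies between 0.487 and 1.10 FPKM in all OSKM-ESC cultures, below its level in MEF cells, and Zfp42 is far apart between the 2 OSKM-iPSC clones.

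The rank of Esrrb depended on which deposited measure was read. Beside FPKM, the files give the mean read coverage of each gene. This was rescaled to FPKM within each library with genes of 1 annotated transcript, where the measures are proportional. Klf2 and Nr0b1, with 1 transcript each, then had equal values on both scales. The FPKM of Esrrb was 20.3 times its rescaled coverage at the median of the 16 ESC and iPSC libraries, while the same ratio was 1.75 for Tfap2c, 1.55 for Klf5, 1.44 for Tbx3 and 1.06 or less for Zfp42, Tfcp2l1 and Nanog. Rescaled coverage was 0.0438 to 0.0604 of FPKM for Esrrb over the libraries, and 1.46% of 9673 genes were at or under its median ratio. On coverage, Esrrb was 8th in OSKM-ESCs, with a median of 2.11, and 9th in 2iL-ESCs, with 10.4, whereas Nanog was first in both. Esrrb has 6 annotated transcripts, and how the transcripts of a gene were combined in either measure is not given in the sources used here. Its place relative to other genes is therefore uncertain. Its changes kept their direction on rescaled coverage, but their size moved in OSKM-ESCs, where Esrrb is near the pseudocount of 1 on that scale. The log2 change from day 18 to day 25 was -0.58 on FPKM and -0.36 on coverage (adjusted p = 0.0338, limma), and that from day 25 to day 38 was 1.01 and 0.54 (adjusted p = 0.0104).

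**Figure D2:**
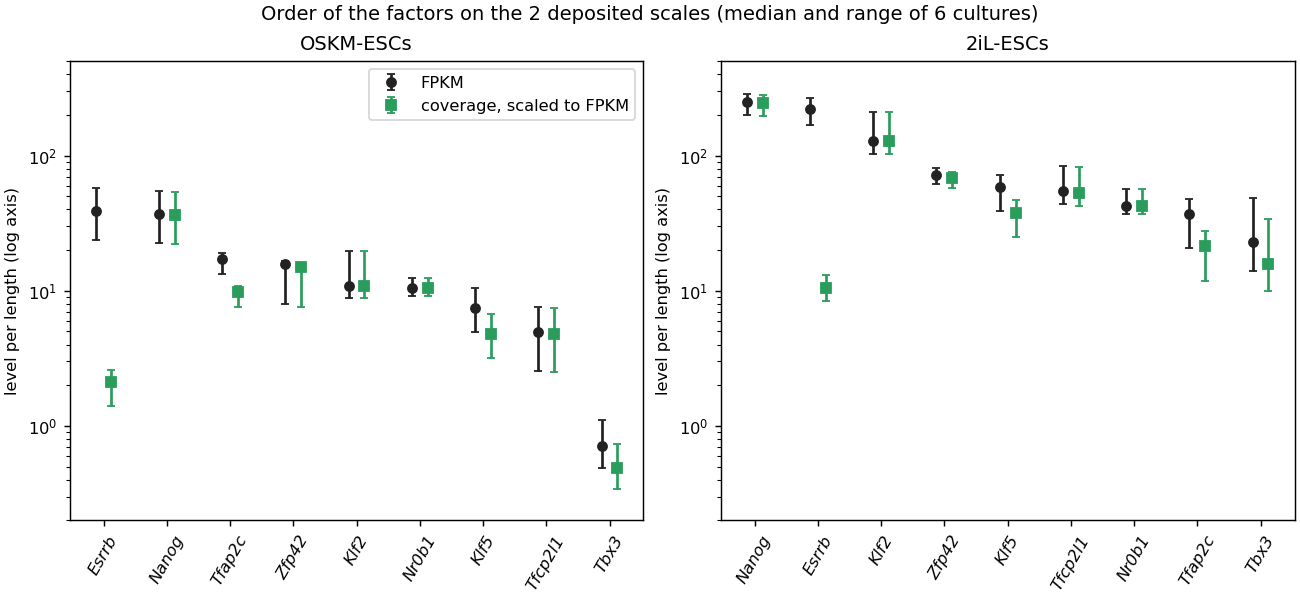
Median (marker) and range (bars) of 6 cultures for each factor in OSKM-ESCs and in 2iL-ESCs, on FPKM (black) and on coverage rescaled to FPKM (green), with a log vertical axis and the factors in the order of FPKM. Esrrb drops from 38.8 to 2.11 in OSKM-ESCs and from 220.4 to 10.4 in 2iL-ESCs, and the other factors stay at 0.557 of their FPKM or more.

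Over the days of OSKM culture, the factors split into those that dipped at day 25 and recovered, those that fell late, and those without a change that passed the test. Of the 9, 5 changed across days 18, 25 and 38 (limma F test, adjusted p under 0.05), against 38.6% of 13073 genes. From day 18 to day 25, 3 fell, where 12.1% of all genes fell, and 0 rose, where 11.5% rose. From day 25 to day 38, 3 rose (14% of all genes) and 2 fell (7.27%).

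Nanog, Esrrb and Tfcp2l1 were the factors that dipped. Nanog had an FPKM of 34.3 and 40.1 in the 2 cultures of day 18, 22.4 and 28.1 at day 25, and 52.6 and 55.0 at day 38. Esrrb had 37.1 and 40.6, then 23.9 and 27.7, then 47.8 and 57.9. The cultures of the 3 days did not overlap for either gene. Nanog fell by 0.55 on the log2 scale (SE 0.14, adjusted p = 0.0313, limma) and then rose by 1.07 (SE 0.14, adjusted p = 0.00279). Esrrb fell by 0.58 (SE 0.13, adjusted p = 0.024, limma) and rose by 1.01 (SE 0.13, adjusted p = 0.0031). Tfcp2l1, at 7.33 and 7.59, then 2.57 and 3.12, then 5.16 and 4.77, had the steepest dip. It fell by 1.14 (SE 0.12, adjusted p = 0.00245, limma) and rose by 0.64 (SE 0.12, adjusted p = 0.0133), and at day 38 it was still below day 18 in both cultures. The fall at day 25 lost its call for Esrrb without either culture of day 18, replicate 1 of day 25 or replicate 1 of day 38 (adjusted p 0.0507 to 0.0927) and for Nanog without any of these or replicate 2 of day 38 (0.0669 to 0.105). With all 9 groups in 1 fit the adjusted p of the Esrrb fall was 0.152, with no filter on low values those of Esrrb and Nanog were 0.0784 and 0.0968, and with TPM that of Nanog was 0.0721. The rise of Tfcp2l1 lost its call without replicate 1 of day 25 or either culture of day 38 (0.052 to 0.114). The rises of Nanog and Esrrb kept theirs with each library left out.

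Zfp42 and Klf5 held their level to day 25 and fell after it. Zfp42 was at 16.6 and 16.6 at day 18, at 15.8 and 15.7 at day 25 and at 7.98 and 9.17 at day 38. Its drop of 0.81 on the log2 scale (SE 0.11, adjusted p = 0.00322, limma) took place while Nanog and Esrrb rose, and its call was lost with all 9 groups in 1 fit (adjusted p = 0.256). Klf5 was at 7.37 and 10.5, at 8.84 and 7.59 and at 5.03 and 4.94, and fell by 0.62 from day 25 to day 38 (SE 0.17, adjusted p = 0.0387, limma). The call of Klf5 was lost without any 1 of the 4 cultures of days 25 and 38 (adjusted p 0.0586 to 0.18), with no filter on low values (0.124) and with TPM (0.0544).

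Klf2, Nr0b1, Tbx3 and Tfap2c did not pass the test in OSKM-ESCs. The 2 cultures of day 18 differed for Klf2, with 8.84 and 19.6, a log2 difference of 1.07 that was the largest among 54 such differences between replicate ESC cultures of the 9 factors (median 0.12). The other 4 cultures lay between 10.6 and 11.1. Without the culture at 19.6 the log2 change from day 18 to day 25 was 0.28 (adjusted p = 0.137, limma), and without the culture at 8.84 it was -0.78 (adjusted p = 0.0291). Nr0b1, the corepressor, lay between 9.20 and 12.4 over all 6 cultures, and Tbx3 between 0.487 and 1.10. Tfap2c lay between 13.2 and 18.9 and was highest at day 38 (18.4 and 18.9). At day 38 the summed FPKM of 6 trophoblast markers was 33.1 and 31.0, above the 5.95 to 10.8 of the other OSKM-ESC cultures. In each OSKM-ESC culture 2 of these markers had an FPKM over 1, and at day 38 3 were at 0 in both cultures. Summed over 7 primitive endoderm markers, FPKM was 8.05 and 10.1 at day 38 and 2.68 to 4.515 before it. Over the 6 formative and primed epiblast markers it was 207.8 and 254.0 at day 18. That sum was 455.0 and 453.5 at day 25 and 402.4 and 406.1 at day 38. The part of these marker lists in the level of any factor was not tested.

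In 2iL-ESCs, which had no change of medium, the same factors followed another course. All 9 changed across the days (limma F test), where 50.8% of 12726 genes did. From day 18 to day 25, 6 factors rose (33.4% of all genes) and 1 fell (19% of all genes). From day 25 to day 38, 6 fell (12.2% of all genes) and 0 rose (7.66% of all genes).

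Klf2, Klf5, Esrrb, Tfcp2l1, Tbx3 and Tfap2c peaked at day 25. Tbx3, with an FPKM of 13.9 and 17.8 at day 18, 46.8 and 48.2 at day 25 and 23.5 and 22.2 at day 38, moved most. It rose by 1.53 on the log2 scale (SE 0.11, adjusted p = 0.000262, limma) and fell by 1.02 (SE 0.11, adjusted p = 0.00532). Tfap2c went from 20.6 and 23.4 to 46.7 and 48.1 and then to 37.5 and 37.0, with a rise of 1.08 (SE 0.07, adjusted p = 0.000198, limma). The cultures of the 3 days did not overlap for Tbx3 or for Tfap2c. Tfcp2l1, with 43.5 and 46.4, then 83.6 and 84.3, then 54.9 and 53.7, rose by 0.89 (SE 0.05, adjusted p = 0.000158, limma) on the step on which it fell by 1.14 in OSKM-ESCs. Klf2 rose by 0.84 (SE 0.11, adjusted p = 0.00146, limma) from 102.5 and 120.6 to 189.9 and 211.0 and returned to 116.1 and 134.3. Klf5 rose by 0.68 (SE 0.11, adjusted p = 0.0039, limma) from 38.7 and 47.3 to 65.6 and 72.4, and Esrrb by 0.57 (SE 0.06, adjusted p = 0.000822, limma) from 187.7 and 169.1 to 261.4 and 267.5. Klf5, at 62.3 and 55.0 on day 38, was the member of these 6 whose later fall did not pass (log2 change -0.23, adjusted p = 0.195, limma).

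Nanog, Zfp42 and Nr0b1 did not share the peak. Nanog was level from day 18 (248.7 and 283.2) to day 25 (252.3 and 279.2) and fell by 0.35 on the log2 scale to 217.9 and 198.9 at day 38 (SE 0.09, adjusted p = 0.0408, limma). Zfp42 declined from 73.9 and 80.6 over 71.0 and 74.4 to 65.2 and 61.2, with neither step passing on its own (adjusted p = 0.314 and 0.0834, limma). Nr0b1 fell by 0.39 from 57.0 and 55.0 to 43.8 and 41.5 (SE 0.06, adjusted p = 0.00224, limma) and stood at 37.1 and 38.0 on day 38. Most calls of a fall from day 25 to day 38 rested on all 4 cultures. Those of Klf2, Esrrb, Nanog, Tbx3 and Tfap2c were lost without any 1 of them (adjusted p 0.0513 to 0.2) and that of Tfcp2l1 without replicate 2 of day 25 (0.0558), while the rises to day 25 kept theirs with each library left out. With all 9 groups in 1 fit, 1 estimate of spread per gene was shared by all groups. The number of factors that changed across the days in 2iL was then 4. The rises of Klf2 and Esrrb to day 25 were not called in that fit (adjusted p = 0.0888 and 0.129, limma).

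**Figure D3:**
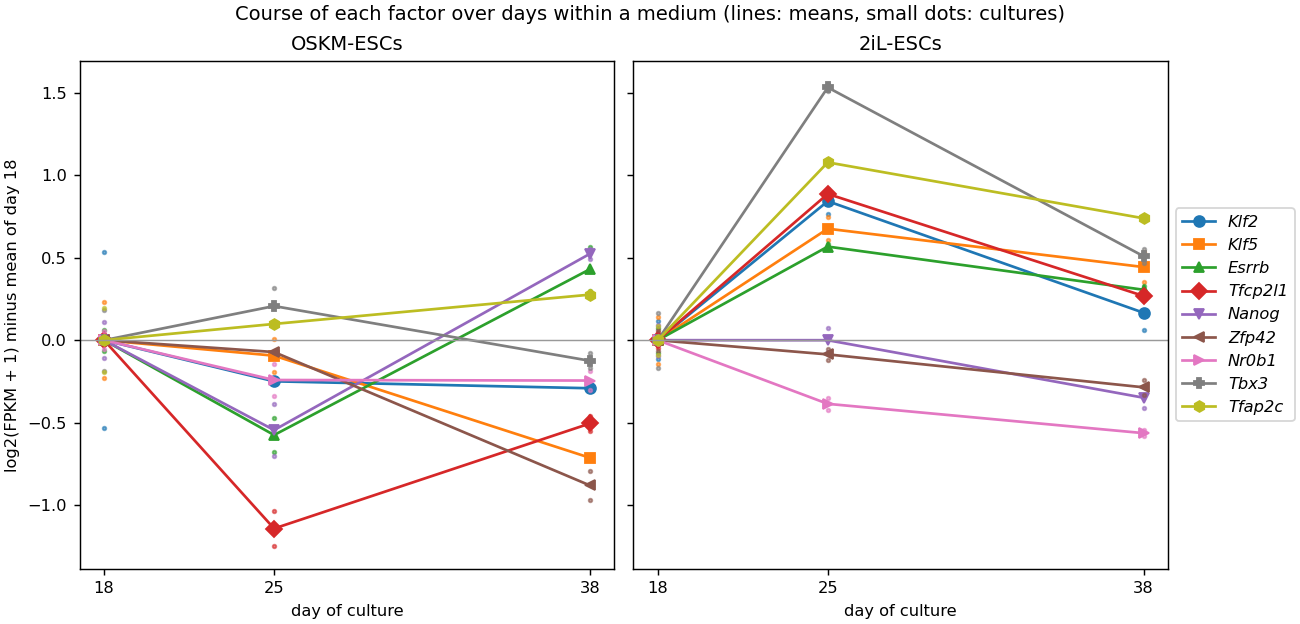
Change of log2(FPKM + 1) from the mean of day 18 (vertical axis) at days 18, 25 and 38 (horizontal axis) in OSKM-ESCs (left) and 2iL-ESCs (right). Lines join means and small dots are the 2 cultures. Esrrb and Nanog run together on the left, where Tfcp2l1 falls by 1.14 at day 25, and 6 factors peak at day 25 on the right, with Tbx3 up by 1.53.

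The course over days differed between the media for 7 of the 9 factors (F test of the medium by day term in limma, with the same threshold), where 37.9% of 14016 genes did. The exceptions were Klf2 (adjusted p = 0.0998) and Nr0b1 (adjusted p = 0.142). The difference between media was widest at day 25 for Tbx3, with a log2 OSKM minus 2iL of -3.31, -4.64 and -3.94 on days 18, 25 and 38, and for Tfcp2l1, with -2.44, -4.47 and -3.21. Nanog (-2.81, -3.35 and -1.93) and Esrrb (-2.17, -3.31 and -2.05) were also furthest from 2iL at day 25 and came nearest at day 38. Tfap2c had -0.50, -1.48 and -0.96. For Zfp42 (-2.15, -2.14 and -2.75) and Klf5 (-2.16, -2.93 and -3.31) the difference was widest at day 38. The SE was largest for Klf5 among these factors, at 0.15. The range over days ran from 0.32 for Nr0b1 to 2.03 for Tfcp2l1.

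Across the 6 cultures of one medium, Pearson's r was computed for the 36 pairs of factors on log2(FPKM + 1). These values are descriptions, since the 2 cultures of a day share their day and each r rests on 6 points. In OSKM-ESCs the median r was 0.106, against 0.037 over all pairs of 13073 genes, and 2 of the 36 pairs (5.56%) were above 0.8, against 7.85% of all pairs. In 2iL-ESCs the median was 0.476, against 0.053, and 16 pairs (44.4%) were above 0.8, against 12.5% of all pairs. One pair, Nr0b1 with Tfap2c (r = -0.809), was below -0.8. In each medium 22 of the 36 pairs had an r above 0, against 52% of all pairs in OSKM-ESCs and 52.3% in 2iL-ESCs. The jackknife SE of the median r over the 6 cultures was 0.347 in OSKM-ESCs and 0.188 in 2iL-ESCs, and the difference between media was not tested.

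Only 2 pairs were above 0.8 in OSKM-ESCs, so few could be shared between the media. None of the 36 was above 0.8 in both, and 20 had the same sign. No share over all pairs of genes was computed for these counts, so they do not set the factors apart. Esrrb and Nanog had an r of 0.984 in OSKM-ESCs (Spearman's rho 1, and r of 0.968 without the 2 cultures furthest from the median of either gene) and of -0.074 in 2iL-ESCs. Nanog and Zfp42 had -0.783 in OSKM-ESCs and 0.959 in 2iL-ESCs, where r was 0.749 and 0.901 without the 2 cultures furthest in Nanog and in Zfp42. The former value rested on the 2 cultures of day 38, since without the 2 furthest in Zfp42 it was 0.891. The same held for Klf5 and Zfp42 in OSKM-ESCs, with 0.902 and then 0.335. Klf2, Klf5, Esrrb, Tfcp2l1, Tbx3 and Tfap2c, picked because they peaked at day 25 in 2iL, had r of 0.823 to 0.996 over their 15 pairs there and of -0.652 to 0.638 (median 0.126) in OSKM-ESCs.

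**Figure D4:**
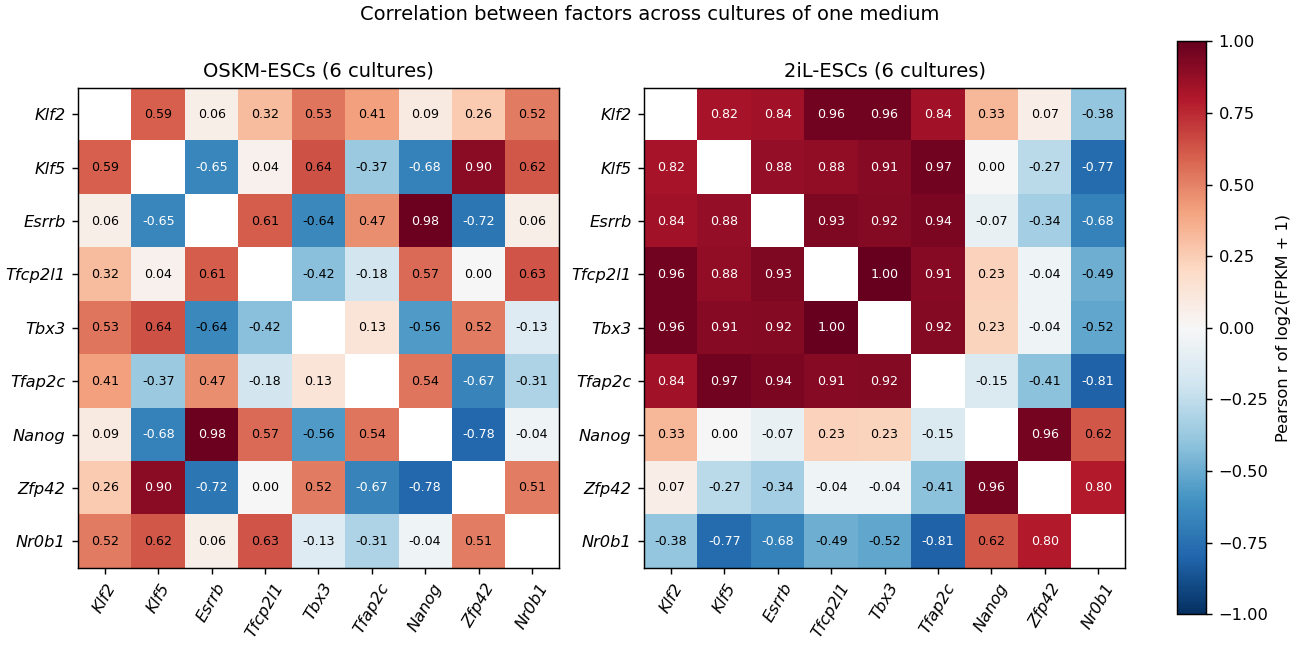
Pearson's r of log2(FPKM + 1) between each pair of factors over the 6 OSKM-ESC cultures (left) and the 6 2iL-ESC cultures (right), on a colour scale from -1 to 1. The block of 6 factors at the top left of the right panel, with r of 0.823 or more, has r from -0.652 to 0.638 on the left, where Esrrb with Nanog reaches 0.984.

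Among 8209 genes with a mean FPKM of at least 5, the genes most like each factor were ranked over the 12 ESC cultures after the mean of each medium was subtracted. The nearest gene was never another factor of the set. That cannot show whether the factors vary together, since the other factors are very few among the 8209 genes ranked. The best rank that a random set of as many genes would reach was not computed, so the ranks below are descriptions. Esrrb was most like Prkar1a (r = 0.977) and Cmtm6 (0.964), and Nanog most like Uhrf2 (0.973) and Mpp5 (0.958). Nanog was the factor most like Esrrb (0.784) and came at rank 402, while Esrrb came at rank 194 for Nanog. Tfcp2l1 was nearest to Tagln2 (0.987) and Leprotl1 (0.981), with Esrrb at rank 670 (0.697). For the Krüppel-like factors, Klf2 was nearest to Cyhr1 (0.958) and Zfp36l2 (0.950), and Klf5 to Jund (0.940) and Plekhm1 (0.936). Tbx3 was the factor most like both, at rank 128 for Klf2 (0.793), the best place any factor took, and 338 for Klf5 (0.706). Tbx3 itself was nearest to Fam160b1 (0.979) and Kazn (0.977), and Tfap2c to C2cd5 (0.991) and Tbc1d22b (0.989). Between Tbx3 and Tfap2c r was 0.845, with 0.921 in 2iL-ESCs alone and 0.126 in OSKM-ESCs alone. Zfp42 was nearest to Nqo1 (0.978) and F2rl1 (0.975), with Klf5 at rank 675 (0.598). Zfp42 with Klf5 had -0.267 in 2iL-ESCs alone and 0.902 in OSKM-ESCs alone. As for Esrrb and Nanog above, an r over both media need not hold in each. Tfcp2l1 with Esrrb, Klf2 and Klf5 with Tbx3, and Nr0b1 with Zfp42 had a positive r in both media. Nr0b1, nearest to Tusc2 (0.930) and Bst2 (0.927), had the lowest best r with another factor, 0.453 with Zfp42 at rank 1609, and a negative r of -0.713 with Tfap2c.

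In iPSCs, 7 of the 9 factors were lower in OSKM-iPSCs than in 2iL-iPSCs (limma, adjusted p from 0.006 for Tfcp2l1 and Nr0b1 to 0.0287 for Klf2), where 2.96% of 13653 genes passed in that direction. Nr0b1 had an FPKM of 5.47 and 5.39 in OSKM-iPSC clones 1 and 3 and of 55.8 and 74.8 in 2iL-iPSC clones 3 and 6. Tbx3 had 0.537 and 0.872 against 27.4 and 21.4. Zfp42, with 11.1 and 54.9 against 177.3 and 196.4, did not overlap and did not pass (adjusted p = 0.0618). Tfap2c, at 16.8 and 32.3 against 15.1 and 16.3, was the one factor whose 2 OSKM-iPSC values both exceeded the 2iL-iPSC values (log2 difference 0.54, SE 0.31, adjusted p = 0.302). With 1 clone left out at a time, the log2 difference ran from -3.14 to -2.90 for Tfcp2l1 and from -3.955 to -1.75 for Zfp42. Such a fit takes its spread from the 2 clones of the other medium alone. It therefore cannot show which clones the calls rested on.

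Clone 3 of the OSKM-iPSCs had more of 7 of the 9 factors than clone 1, and the share of all genes higher in clone 3 was not computed. Of the 7, Tfcp2l1 (log2 difference 0.24) and Tbx3 (0.28, with an FPKM under 1 in both clones) were near the median absolute difference of all genes, 0.28. With no replicate of a clone there is no test of these differences. Over 2-fold differences on the log2(FPKM + 1) scale were seen for 3 of the 8 factors with an FPKM over 1, while 10.2% of 12874 genes differed as much between these clones. They were Zfp42 (11.1 in clone 1 and 54.9 in clone 3, log2 difference 2.21), Klf2 (9.68 and 24.2, 1.24) and Esrrb (23.1 and 54.1, 1.19). The next were Tfap2c (16.8 and 32.3, 0.90) and Nanog (37.0 and 55.0, 0.56). Tfcp2l1 (6.00 and 7.24) and Nr0b1 (5.47 and 5.39) were close in the 2 clones, and Klf5 went the other way with 5.88 in clone 1 and 3.39 in clone 3. On rescaled coverage, where Esrrb was near the pseudocount of 1, the number was 2. Zfp42 made up 9.60% of the summed FPKM of the 9 factors in clone 1 and 23.1% in clone 3, and 20.4% and 20.7% in the 2iL-iPSC clones. The 2iL-iPSC clones differed by over 2-fold in 0 factors, as did 2.41% of 12181 genes.

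The summed FPKM of the fibroblast markers was higher in clone 1 than in clone 3. The paper states that MEF cells were seeded onto feeder cells for reprogramming. These markers cannot tell feeder cells from remaining starting cells. Of 12, 10 had an FPKM over 1 in clone 1 and 1 in clone 3, with sums of 114.6 and 4.64, and Col1a1 was at 28.1 and 0.114. Summed over the 8 pluripotency markers, FPKM was 1160 in clone 1 and 1746 in clone 3. Summed over 6 trophoblast markers it was 11.1 in clone 1 and 31.4 in clone 3. Their part in the differences of the factors was not tested. Klf5 was higher in clone 1 and had an FPKM of 8.98 and 9.69 in MEF cells. Klf2 (6.35 and 6.70) and Tbx3 (4.70 and 5.52) were also expressed in MEF cells but were higher in clone 3.

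The difference between media was not the same in iPSCs as in ESCs for 2 of the 9 factors (limma contrast of the iPSC difference minus the mean ESC difference, adjusted p under 0.05), where 14.2% of 14621 genes passed. Nr0b1 was further from 2iL in iPSCs, by -1.36 on the log2 scale (SE 0.14, adjusted p = 0.00028), and Tfap2c nearer, by 1.52 (SE 0.26, adjusted p = 0.00362). The ratio of mean FPKM, 2iL over OSKM, was 4.29 in ESCs and 12 in iPSCs for Nr0b1, and 2.11 and 0.641 for Tfap2c. With OSKM-iPSC clone 1 or clone 3 left out, that group was a single library and the spread came from the other groups. Such a fit does not measure variation between clones, so only the size of a difference is given. Zfp42 went both ways, with 0.60 without clone 1 and -1.61 without clone 3.

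**Figure D5:**
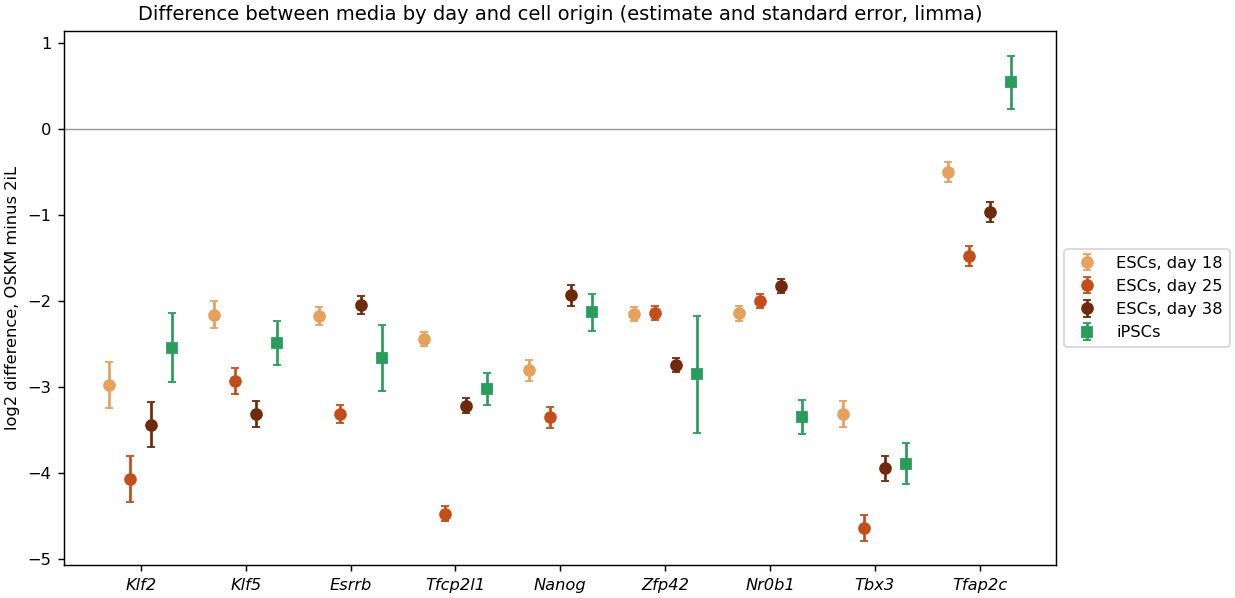
Log2 difference of OSKM minus 2iL (vertical axis, estimate with standard error from limma) for each factor in ESCs at days 18, 25 and 38 (circles) and in iPSCs (green squares). Tfcp2l1 reaches -4.47 at day 25, Nr0b1 is lower in iPSCs than on any day in ESCs, and Tfap2c is above 0 in iPSCs, at 0.54.

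MEF cells, the starting cells of the iPSCs, split the set. In both libraries the files list Nanog, Nr0b1 and Zfp42 at 0, and Esrrb, Tfcp2l1 and Tfap2c were at 0.166 or less. Klf5 (8.98 and 9.69), Klf2 (6.35 and 6.70) and Tbx3 (4.70 and 5.52) were expressed. The mean of Tbx3 in OSKM-ESCs was 0.144 times and that in OSKM-iPSCs 0.138 times its mean in MEF cells, with no overlap. For Klf5 these ratios were 0.790 and 0.496, with cultures of OSKM-ESCs on both sides of MEF cells, and for Klf2 1.83 and 2.60. Klf2, Klf5 and Tbx3 were thus the factors whose presence did not separate the pluripotent libraries from fibroblasts.

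Of 16 other genes of the network, 14 were tested in each medium. The 16 included Pou5f1, Sox2, Klf4, Sall4, Prdm14, Nr5a2, Gbx2, Stat3, Tcf7l1, Dppa3, Fgf4, Otx2, Utf1, Tdgf1 and Nr0b2. Prdm14 was not tested in OSKM-ESCs, Otx2 was not tested in 2iL-ESCs, and Nr0b2 was tested in neither. In OSKM-ESCs, 7 changed across the days (38.6% of all genes), with 2 up at day 25 (11.5%), 3 down at day 38 (7.27%) and 0 in the other direction on either step. Gbx2, a factor downstream of LIF, rose by 1.85 on the log2 scale to day 25 (adjusted p = 0.00201, limma), on the step on which Nanog, Esrrb and Tfcp2l1 fell. Utf1, a chromatin-associated factor, fell by 1.65 from day 25 to day 38 (adjusted p = 0.0049, limma) and Tcf7l1 fell by 1.28 (adjusted p = 0.0177). Any link of Gbx2, Utf1 or Tcf7l1 with the courses of the factors was not tested. In 2iL-ESCs, 11 changed (50.8% of all genes), with 7 up (33.4%) and 4 down (19%) at day 25 and 2 up (7.66%) and 4 down (12.2%) at day 38. Klf4 rose by 1.59 to day 25 (adjusted p = 8.47e-05, limma), Fgf4 by 1.23 (adjusted p = 0.0004) and Sox2 by 0.91 (adjusted p = 0.00133), and each fell from day 25 to day 38, as 6 of the 9 factors did.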

How the data were processed

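RNA-Seq was analysed in 18 libraries of 9 groups. Per the methods and labels, RNA was extracted with TRIzol, poly-A libraries were made with a NEBNext Ultra kit, reads were aligned to GRCm38 with STAR 2.7.1a, uniquely mapped reads were kept and StringTie 2.0 was run. The FPKM values deposited by the authors are StringTie's per gene. The deposited coverage is the mean read signal per base, not normalized for depth. The deposited TPM values are FPKM rescaled by the authors to a common total. For the alternative with TPM, FPKM was rescaled to a common total in each of the 18 libraries. The deposited TPM of 16 libraries differed from this by at most 8.66. In the other 2 libraries a value had failed for a gene, and the 2 genes concerned were left out. FPKM of gene identifiers listed more than once was summed. The authors used Cuffdiff 2.2.1 for their comparisons, which needs reads.

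The 9 factors, the gene lists and the tests were chosen with earlier results of these data known. Linear models were fitted with limma 3.58.1 in R 4.3.3 (lmFit, eBayes with a trend) to FPKM after adding 1 and taking log2. A gene entered a fit if its FPKM exceeded 1 in any library of that fit. Adjustment was by Benjamini and Hochberg across every gene of the fit, with a threshold of 0.05. Fold changes on this scale understate those of low genes such as Tbx3. Each day course was fitted on the 6 ESC libraries of its medium, the media and the interaction on the 12 ESC libraries, the iPSCs on 4 libraries, and the contrast of iPSCs and ESCs on 16. Differences between single clones have no test. Correlations are across cultures, without p-values. The procedure was tested on simulated data. 1 gene of the network list is counted but not reported here by name. Named are the 9 factors, the 2 genes most like each and the nearest factor, and up to 3 network genes per medium with the widest range of day means among those that changed. Coverage was used in place of FPKM as an alternative chosen after seeing the data. Promoters are from RefSeq (GRCm38.p6), gene positions are those deposited with the expression values, and transcript numbers are from the GENCODE annotation of GRCm38. Python 3.11.15 with numpy 2.4.6 and pandas 2.3.3 was used. No batch or date of sequencing is given in the sources used here. No read counts were at hand, so precision comes from the spread between libraries.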

Additional observations from a re-analysis of the deposited data

Results flagged for a closer look

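Over 18 groups of 6 cultures (9 factors in 2 media), 1 culture lay far from the others by Dixon's test at the 95% level, and chance alone flags about 1 in 20 such groups. It was the second day 18 culture of OSKM-ESCs for Klf2, at an FPKM of 19.6, whereas the other 5 lay between 8.84 and 11.1.

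The difference between media varied between days by the interaction test of limma for 7 factors. The range of the log2 differences over days 18, 25 and 38 was 2.03 for Tfcp2l1, 1.42 for Nanog, 1.33 for Tbx3, 1.27 for Esrrb, 1.16 for Klf5, 0.98 for Tfap2c and 0.61 for Zfp42.

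Between ESCs and iPSCs, the difference between media differed by -1.36 for Nr0b1 and by 1.52 for Tfap2c on the log2 scale (iPSCs minus ESCs, limma). The 2 OSKM-iPSC clones were close for Nr0b1 and 0.90 apart on the log2 scale for Tfap2c.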

How the results depend on the processing

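Each result was recomputed with each replicate left out, with all 9 groups in 1 fit, with coverage or TPM for FPKM, after quantile normalization or median-ratio scaling, with limma's trend off, with 0.1 added in place of 1, and with stricter or no filtering. Of 1119 values of single factors, 1002 kept their direction and side of the threshold, 81 lost the call, 17 gained it and 19 changed sign. The count of factors that changed across days in 2iL-ESCs was 4 with all 9 groups in 1 fit. The count between media in iPSCs was 0 with no filter on low values. With each replicate left out, the counts were 4 to 6 and 6 to 9 across days in OSKM-ESCs and 2iL-ESCs, 7 to 8 for the interaction, 9 between media in ESCs, 0 to 8 in iPSCs and 2 to 6 between ESCs and iPSCs. The median r ran from -0.18 to 0.258 in OSKM-ESCs and from 0.376 to 0.597 in 2iL-ESCs, where it was 0.281 without Tbx3. Where a clone was left out, the lone clone of its group was assumed to vary like the others. In the fit of iPSCs alone, the spread then came only from the 2 clones of the other medium. The cause of these shifts was not tested.

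Log2 values that changed sign were these. In OSKM-ESCs from day 18 to day 25, Klf2 ran from -0.7825 without replicate 1 of day 18 to 0.28 without replicate 2, and Klf5 from -0.3228 to 0.14 without the same cultures, with 0.0045 without replicate 2 of day 25. Tfap2c ran from -0.10 to 0.2924 without replicates 1 and 2 of day 18, and Zfp42 had 0.0205 with TPM. From day 25 to day 38, Nr0b1 had 0.10 without replicate 1 of day 25 and 0.05 without replicate 1 of day 38. In 2iL-ESCs to day 25, Nanog had 0.19 with quantile normalization, 0.13 with TPM, -0.0934 and 0.0933 without replicates 1 and 2 of day 18, and 0.07 without replicate 1 of day 25, and Zfp42 had 0.0408 with TPM. Between ESCs and iPSCs, without OSKM-iPSC clones 1 and 3, Klf5 had -0.0122 and 0.6367, Esrrb 0.44 and -0.7503 and Zfp42 0.60 and -1.6099. Nanog had -0.20 with day 38 alone for the ESCs, and Tbx3 had -0.0648 with quantile normalization, -0.07 without OSKM-iPSC clone 3, and 0.2437 and -0.10 without 2iL-iPSC clones 3 and 6.

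Same-numbered cultures were not shown to be pairs, since their deviations from group means had an r of 0.131, 0.090 and 0.012 between media at days 18, 25 and 38 and of -0.035 to 0.145 between days over 14016 genes. With the replicate number as a replicate block, the counts were 5 across days in OSKM-ESCs, 8 in 2iL-ESCs, 8 for the interaction and 9 between media. The calls of Klf5 from day 25 to day 38 in OSKM-ESCs (adjusted p = 0.0545, limma), and of Esrrb (0.0528) and Nanog (0.0608) on that step in 2iL-ESCs, were lost under it. No block was fitted for the iPSCs, whose clone numbers are names. The depth in reads is unknown, and Tbx3, near an FPKM of 1 in OSKM-ESCs, is the factor with the least signal.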
